A study of Homo sapiens with 8 samples.

Results

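The addition of gefitinib to luteolin was examined by comparing 2 miRNA arrays of PC-3 cells that received both drugs with 2 arrays of PC-3 cells that received luteolin alone. These 4 arrays were chosen by their treatment labels from the 8 arrays of the series, and they ask what gefitinib changed in cells that were also exposed to luteolin. PC-3 is an established line of hormone-insensitive human prostate cancer cells, so every array came from the same line. The luteolin group received 60 µM luteolin for 24 h, and the co-administration group received the same dose of luteolin together with gefitinib at 60 µM, also for 24 h. The paper states that both drugs were dissolved in DMSO for its growth curves, and it does not name their solvent for the array cells. The other 4 arrays, 2 of cells given DMSO alone and 2 of cells given 60 µM gefitinib alone for 24 h, were used for reference and for the estimate of the spread. The labels call the 2 arrays of a group biological replicates.

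miRNAs are short RNAs that load into an Argonaute protein and pair with target mRNAs mainly through the seed, which comprises bases 2 to 8. Each hairpin precursor can release a 5p and a 3p arm. The arm held in the family lists is called the guide here and its partner the opposite arm, without regard to their measured abundance. Gefitinib inhibits the kinase of the epidermal growth factor receptor (EGFR), which drives growth signalling in many carcinomas. Luteolin is a plant flavonoid that inhibits several kinases, and both compounds were studied here as inhibitors of the cyclin G-associated kinase GAK.

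The mature sequences of the miRNAs on which the results turned are given 5′ to 3′ as listed by RefSeq (GRCh38.p14), with the seed in capitals. Among the RefSeq entries used, a sequence was found by name for 56 of the 65 miRNAs named by the rule. The first set holds 5 of the 6 that were higher after the addition of gefitinib by the test described below, and the other one was miR-5194.
miR-5587-5p: aUGGUCACcuccgggacu
miR-1226-5p: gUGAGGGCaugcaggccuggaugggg
miR-3125: uAGAGGAAgcuguggagaga
miR-501-5p: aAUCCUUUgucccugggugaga
miR-4716-3p: aAGGGGGAaggaaacauggaga
Their loci were chr16:535316-535333 (plus strand, within CAPN15), chr3:47849555-47849580 (plus strand, within DHX30), chr2:12737376-12737395 (plus strand, within TRIB2), chrX:50009735-50009756 (plus strand, within CLCN5) and chr15:49169079-49169100 (minus strand, within GALK2), in the same order. No seed was shared among them.

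The second set holds those that were lower by the same test.
miR-4451: uGGUAGAGcugaggaca
let-7a-3p: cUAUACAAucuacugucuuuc
miR-873-5p: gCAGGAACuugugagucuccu
They lie at chr4:85722515-85722531 (plus strand, within ARHGAP24), at chr9:94176013-94176033 and chr22:46112800-46112820 (both plus strand, within MIRLET7A1HG and MIRLET7BHG) and at chr9:28888925-28888945 (minus strand, within LINGO2), respectively.

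The third set holds the miRNAs on which the study centred, miR-630 with miR-5703, then miR-4746-3p and both arms of the miR-100 precursor, whose values are contrasted below. Host genes were assigned by position in the RefSeq gene table, without regard to strand or to exons and introns.
miR-630: aGUAUUCUguaccagggaaggu
miR-5703: aGGAGAAGucgggaaggu
miR-4746-3p: aGCGGUGCuccugcgggccga
miR-100-5p: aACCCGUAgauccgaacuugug
miR-100-3p: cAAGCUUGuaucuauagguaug
They lie at chr15:72587277-72587298 (plus strand, within ARIH1), chr2:227472162-227472179 (plus strand, within AGFG1), chr19:4446021-4446041 (plus strand, overlapped by CHAF1A and UBXN6), chr11:122152275-122152296 and chr11:122152240-122152261 (both minus strand, within MIR100HG), respectively.

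Each array held 30 spots for each of 1887 human miRNAs, and between 395 and 479 miRNAs were detected on the 4 arrays compared. The number of arrays limits the precision, and 0 spots were saturated. The 8 arrays lay on 1 slide, with a treatment in each slide column and a replicate in each slide row, so that treatment and slide column cannot be told apart. Of 9 miRNAs known from PC-3 or prostate epithelial cells, 5 were detected on all 4 arrays (miR-21-5p, miR-31-5p, miR-100-5p, miR-221-3p and miR-222-3p). miR-141-3p, miR-200c-3p and miR-375 were detected on none. The summed level of this list was 7836 to 10233 with luteolin and 8011 to 8516 with both drugs. Of 7 blood cell markers, 6 were detected on no array and 0 on all 4, and of 7 muscle and stromal markers 7 were detected on no array. Of 3 liver or brain markers, miR-122-5p and miR-124-3p were detected on none, and miR-9-5p was detected on all 4, at 7.62 to 14.9 with luteolin and 9.11 to 12.0 with both drugs.

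Signals below are total signals per miRNA on a linear scale, scaled to each array's 75th percentile over the 365 miRNAs detected on all 8 arrays. They are relative levels, so that less of a miRNA per cell and fewer cells holding it cannot be told apart. Calls required an adjusted p under 0.05 in limma (Benjamini-Hochberg, over all 480 miRNAs tested). The co-administration gave 9 calls against luteolin (1.88% of those tested), of which 6 were higher (1.25%) and 3 were lower (0.625%). Without adjustment, 74 miRNAs had a p under 0.05 (15.4%), 40 higher (8.33%) and 34 lower (7.08%). The 2 co-administration arrays lay above both luteolin arrays for 78 miRNAs (16.2%) and below both for 86 (17.9%). Over 2-fold differences numbered 50 (10.4%), 19 upward (3.96%) and 31 downward (6.46%). The median log2 fold change of all 480 was -0.05. The count of 9 became 0 when only the 4 arrays compared entered the limma fit, in which 44 had an unadjusted p under 0.05. Leaving out either gefitinib array gave 3 calls. Leaving out the first luteolin array gave 18 and the second 15, and leaving out the first co-administration array gave 17 and the second 4.

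miR-3125 gave signals of 15.4 and 13.6 on the luteolin arrays and 36.3 and 35.8 on the co-administration arrays. The DMSO arrays gave 19.3 and 17.6 and the gefitinib arrays 14.5 and 16.1, so that the co-administration stood above the other 6 arrays. The log2 fold change against luteolin was 1.31 (SE 0.14, limma adjusted p = 0.0144). miR-5194 gave 25.2 and 19.8 with luteolin and 51.8 and 54.3 with both drugs. Its arrays without the drug pair ranged up to 26.0, and the groups did not overlap. The difference was 1.25 on the log2 scale (SE 0.17, adjusted p = 0.0279). miR-4716-3p gave 21.9 and 17.9 with luteolin and 41.5 and 39.6 with both, a log2 fold change of 1.03 (SE 0.16, adjusted p = 0.0388).

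miR-501-5p belongs to a cluster within CLCN5 that also holds miR-188, and it gave 3.60 and 3.36 with luteolin and 6.60 and 7.18 with both drugs. The log2 fold change was 0.99 (SE 0.13, adjusted p = 0.0279), and the DMSO and gefitinib arrays lay between 3.71 and 4.31. miR-5587-5p and miR-1226-5p were detected on the co-administration arrays only. miR-5587-5p gave 4.40 and 3.93 there (adjusted p = 0.000505), and the sum of all its probes, detected or not, gave a log2 fold change of 2.79 against luteolin (adjusted p = 0.00364). miR-1226-5p gave 1.65 and 1.88 (adjusted p = 0.00510), and the sum of all its probes gave 0.74 (adjusted p = 0.108). No lower limit of the fold is given for an undetected miRNA, since its probes can carry signal that the total leaves out. On the luteolin arrays the brighter probe of miR-1226-5p averaged 3.59 and 2.92 over its spots, against 5.84 and 6.69 with both drugs. Both miRNAs were at the floor of 0.609 on the other 6 arrays, with no spread there, and entered the test only because the co-administration arrays detected them, so that their p-values give no support beyond the detection itself.

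**Figure D1:**
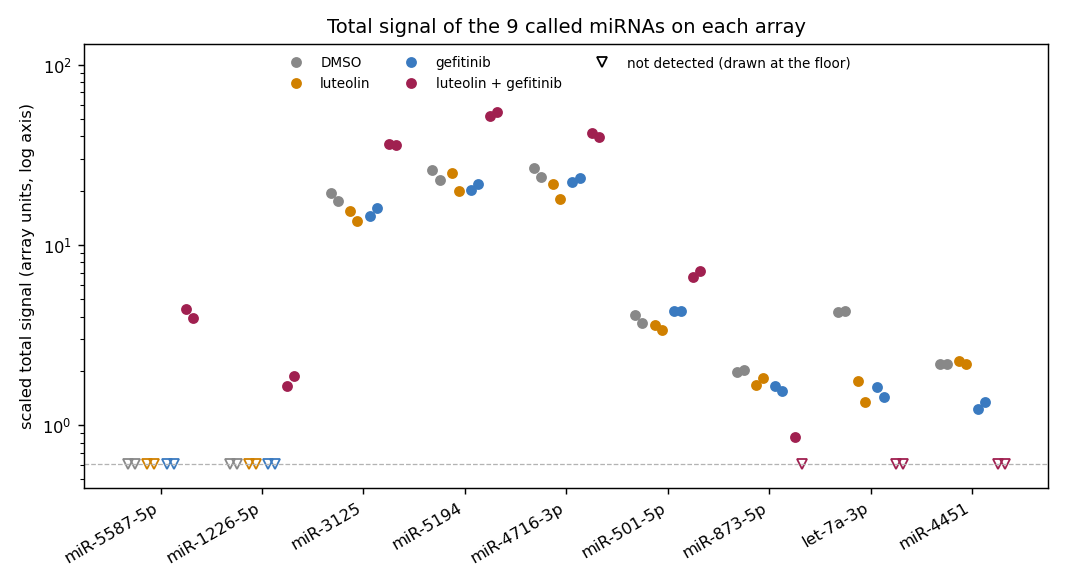
Scaled total signal (log axis, array units) of the 9 called miRNAs on each of the 8 arrays, with 2 points per treatment and open triangles at the floor of 0.609 for arrays on which a miRNA was not detected. The 6 miRNAs on the left were called higher and the 3 on the right lower with luteolin plus gefitinib than with luteolin, as for miR-3125 at 36.3 and 35.8 against 15.4 and 13.6.

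The 30 spots of a miRNA are copies of 2 to 4 probes (for the 9 called) spread over the array, which allowed each total to be traced to its spots. For miR-3125, 7 of the 30 spots had mean scaled spot signals of 200 and 185 on the co-administration arrays, and the other spots had 29.5 and 32.0. The same 7 spots had 29.9 and 25.6 on the luteolin arrays, where the others had 27.3 and 24.6. The bright spots were the same ones on both co-administration arrays, and they carried 65.5% of the summed spot signal. miR-4716-3p had 5 such spots, at 291 and 263 against 40.6 and 41.7 for its other spots. miR-5194 had 8, at 222 and 245 against 52.2 and 59.9. miR-501-5p had 4, at 46.9 and 47.6 against 8.36 and 9.40. miR-5587-5p had 5 and miR-1226-5p had 2, so that 6 of the 6 miRNAs called higher held bright spots and 0 of the 3 called lower did.

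A spot was counted as bright when its signal plus 5 exceeded 2 times the median of the same probe plus 5, and only spots bright on both replicates of a group were counted. Spots raised by less were not counted, as for miR-5703 below. Of 56610 spots, none were bright in the DMSO group, 2 were in the luteolin group and 207 were in the gefitinib group, whereas the co-administration group had 301. All of them in the last group lay in array columns whose number leaves a remainder of 2 on division by 4, which hold 25.0% of the spots, and 283 lay in even rows. Those of the gefitinib arrays lay elsewhere, with 205 of 207 in columns of remainder 0, and 0 spots were bright with gefitinib and with both drugs. The bright spots of the co-administration belonged to 107 miRNAs. Among the 480 tested, 64 held at least 1 and 28 held 4 or more. Leaving out every even column removes all bright spots of the co-administration arrays.

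On odd columns alone, 0 of 480 miRNAs were called by limma, and 54 had an unadjusted p under 0.05. This count does not measure the spot positions alone, since miR-4451 and let-7a-3p, with 0 bright spots, were also no longer called there. Their log2 fold changes were -1.81 and -1.97 on odd columns (limma adjusted p = 0.207 and 0.205) and -0.89 and -1.72 with the median of spots. The total signal gave -1.86 and -1.33, with the floor in place of their undetected co-administration arrays. On odd columns miR-3125 had mean spot signals of 27.8 and 24.8 with luteolin and 26.4 and 29.9 with both drugs, which overlapped. miR-5194 had 44.2 and 34.4 with luteolin and 37.9 and 46.3 with both, and miR-4716-3p had 41.8 and 34.3 against 38.8 and 40.8. The log2 fold changes of these 3 miRNAs became 0.05, 0.06 and 0.02. miR-501-5p kept 6.45 and 6.13 against 7.36 and 8.12, with no overlap and a log2 fold change of 0.25 (adjusted p = 0.558). miR-1226-5p had a log2 fold change of 0.13 on odd columns. miR-5587-5p had mean spot signals of 1.47 and 0.128 with luteolin and 2.55 and 2.06 with both drugs, a log2 ratio of 2.40. With the odd-column scaling and floor its log2 fold change was 1.76 (limma adjusted p = 0.373). With the median over the spots of each probe in place of the total, 1 miRNA was called, let-7a-3p, which was lower, and 62 had an unadjusted p under 0.05. Both summaries were chosen after seeing the data.

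**Figure D2:**
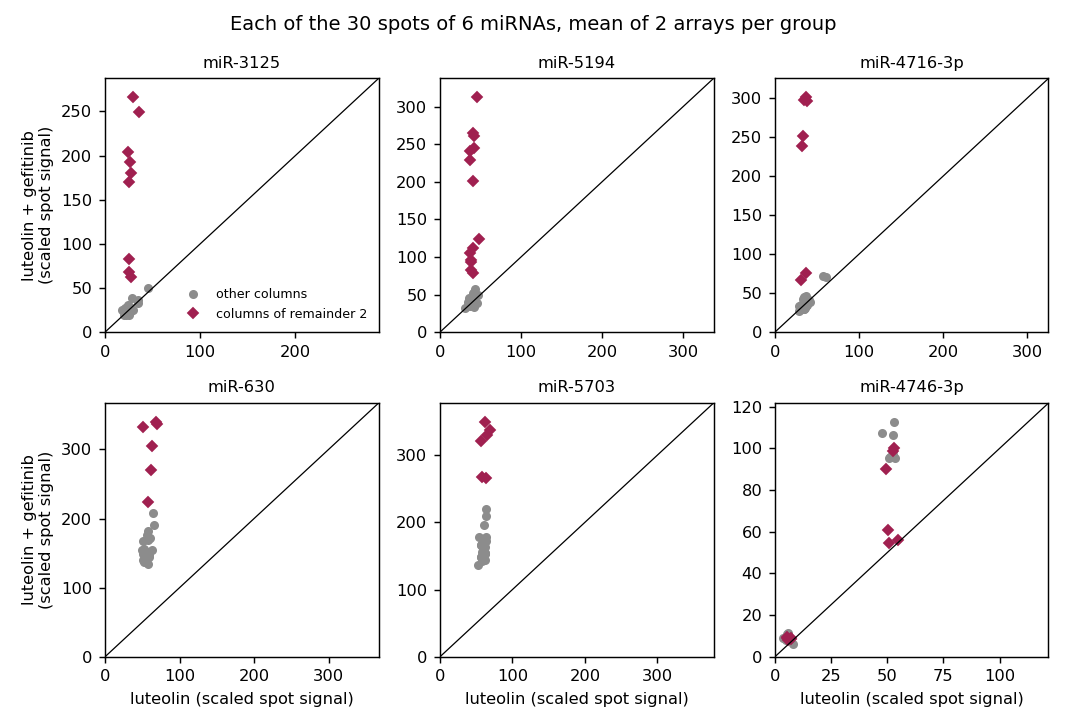
Scaled signal of each of the 30 spots of 6 miRNAs, with the mean of the 2 luteolin arrays on the x axis and of the 2 luteolin plus gefitinib arrays on the y axis, the line marking equality and diamonds marking array columns of remainder 2. In the upper panels (miR-3125, then miR-5194, then miR-4716-3p) the high spots are diamonds and the other spots lie near the line, whereas all 30 spots of miR-630 and all 30 of miR-5703 lie above it, with the diamonds highest.

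let-7a-3p is the opposite arm of let-7a, whose guide belongs to the let-7 family that restrains growth genes. It gave 1.75 and 1.34 with luteolin and was detected on neither co-administration array, and it was called lower (limma adjusted p = 0.0279). The call for let-7a-3p set these values against the floor of 0.609 on both arrays, with no spread there. With DMSO it had given 4.26 and 4.28, and with gefitinib 1.62 and 1.43, so that its order ran from DMSO through either drug to the pair. The guide let-7a-5p overlapped between the groups, at 2393 and 4139 against 2946 and 3493. No bright spot was involved, and 1 of its 4 probes carried the measured signal, with a log2 ratio of its spot means of -1.72. The log2 fold change of let-7a-3p was -1.72 with the median of spots (adjusted p = 0.0246).

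miR-4451 gave 2.26 and 2.17 with luteolin and was detected on neither co-administration array (limma adjusted p = 0.00219). The call for miR-4451 also set its luteolin values against the floor, with no spread there. The 1 of its 2 probes with signal averaged 7.95 and 7.60 over its spots with luteolin and 4.04 and 2.97 with both drugs, a log2 ratio of -1.16. The DMSO arrays gave 2.18 and 2.19 and the gefitinib arrays 1.23 and 1.35. miR-873-5p gave 1.67 and 1.83 with luteolin and, with both drugs, 0.858 on 1 array and no detection on the other, a log2 fold change of -1.28 (SE 0.19, adjusted p = 0.0388). Both were dim miRNAs near the limit of detection. The scanner software totals only probes whose signal exceeds 3 times their error, a rule that gave the deposited total within 1% for 100% of the 3582 detected values. The number of probes in the total can therefore differ between groups: for miR-873-5p it was 2 and 2 with luteolin and 1 and 0 with both drugs. Summing all probes whether or not they passed that rule, a summary chosen after seeing the data, gave log2 fold changes of -0.31 for miR-873-5p (adjusted p = 0.278), -1.25 for miR-4451 (adjusted p = 0.0436) and -1.28 for let-7a-3p (adjusted p = 0.0222). Over the 480 miRNAs, fewer probes entered the total with both drugs than with luteolin for 87 and more for 31, and the sum of all probes gave 13 calls, 9 higher and 4 lower.

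**Figure D3:**
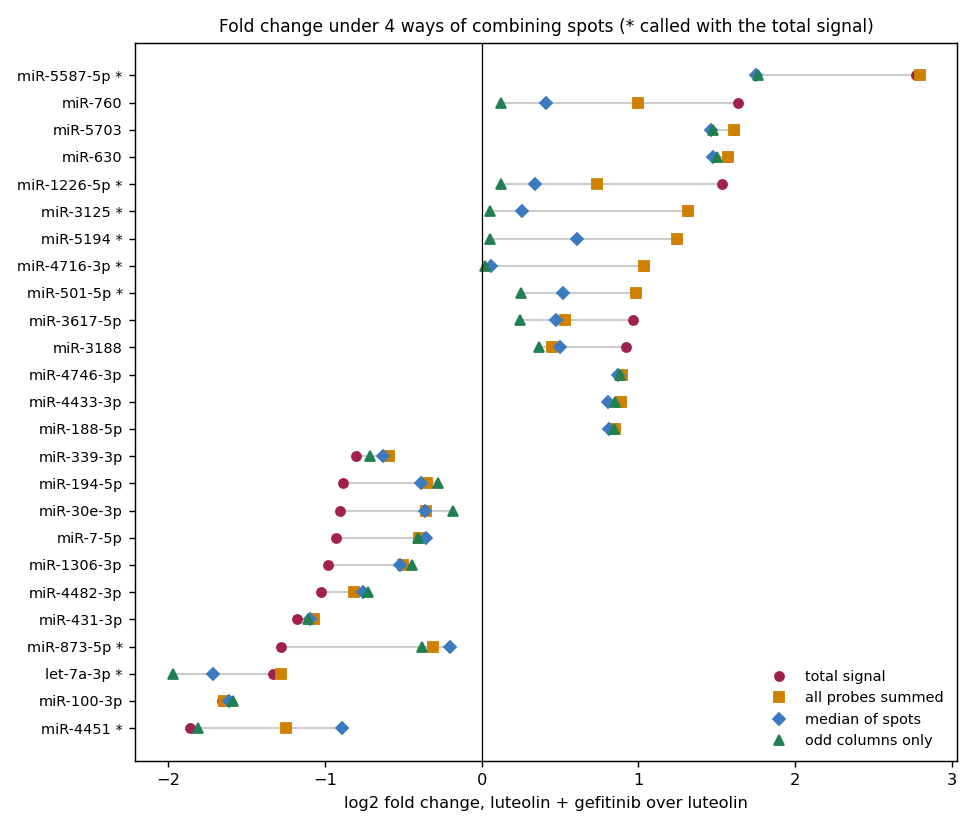
Log2 fold change of luteolin plus gefitinib over luteolin for the 9 called miRNAs (asterisks) and for 16 that were not called but did not overlap between the groups, from the total signal, the sum of all probes, the median of spots and the spots in odd columns only. For miR-3125 the total signal gave 1.31 and the odd columns 0.05, and for miR-630 they gave 1.57 and 1.50.

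Several miRNAs that were not called had a difference of similar size under each summary of the spots. miR-630, which has been studied in stress and cell death, gave 40.2 and 24.8 with luteolin and 79.4 and 111 with both drugs, a log2 fold change of 1.57 (SE 0.36, adjusted p = 0.138). The gefitinib arrays gave 112 and 121 and the DMSO arrays 32.0 and 18.6. miR-5703 gave 42.2 and 25.8 with luteolin and 81.9 and 125 with both, a log2 fold change of 1.61 (SE 0.38, adjusted p = 0.138). In both pairs of arrays replicate 1 and replicate 2 differed, with luteolin replicate 1 and co-administration replicate 2 the higher, and the groups did not overlap. On odd columns the log2 fold changes of miR-630 and miR-5703 were 1.50 and 1.47, and miR-630 had 1 bright spot and miR-5703 had 0. Their spots in columns of remainder 2 were nonetheless the highest on both co-administration arrays. For miR-5703 these spots gave 219 to 271 on replicate 1 and 312 to 428 on replicate 2. Its other spots gave 109 to 182 and 165 to 257, so that raised spots can miss the cut-off. The odd-column spots of miR-630 averaged 70.5 and 42.9 with luteolin and 133 and 196 with both drugs, with no overlap.

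miR-4746-3p gave 17.3 and 15.2 with luteolin and 28.0 and 32.6 with both drugs, a log2 fold change of 0.90 (SE 0.15, adjusted p = 0.0515). It had 0 bright spots, its value was 0.89 on odd columns, and the sum of all probes gave the same 0.90 with an adjusted p of 0.0368. miR-188-5p, a neighbour of miR-501-5p in CLCN5, gave 12.3 and 7.23 against 16.5 and 17.6, a log2 fold change of 0.85 (adjusted p = 0.214) that was 0.84 on odd columns. miR-4433-3p gave 4.41 and 3.54 against 6.29 and 8.53, with 0.89 (adjusted p = 0.376) and 0.85 on odd columns. By contrast, miR-760 gave 1.43 and 0.742 against 3.03 and 3.40, and its log2 fold change of 1.64 (adjusted p = 0.0823) was 0.12 on odd columns, with 3 bright spots. Its total held 2 and 1 probes with luteolin and 3 and 3 with both drugs, and all probes summed gave 1.00 (adjusted p = 0.0368). miR-3617-5p and miR-3188 also did not overlap between the groups, and their values of 0.97 and 0.92 were 0.24 and 0.36 on odd columns. Both had 0 bright spots and 1 probe fewer in the total of luteolin replicate 2, and all probes summed gave 0.54 and 0.45. miR-5003-3p was detected only on the 2 co-administration arrays among the 4 compared, at 1.69 and 2.13 (adjusted p = 0.169), with 2 bright spots. The sum of all its probes gave a log2 fold change of 0.78 and its odd columns 0.10.

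Among the falls that were not called, miR-100-3p was the largest of those detected on all 4 arrays. Its signal was 15.2 and 10.0 with luteolin and 4.06 and 3.76 with both drugs, below the gefitinib arrays at 19.7 and 12.5 and the DMSO arrays at 37.8 and 48.2. The log2 fold change against luteolin was -1.66 (SE 0.31, adjusted p = 0.0766), and all probes summed gave -1.64 (adjusted p = 0.0436). miR-431-3p, from the imprinted 14q32 cluster, gave 11.3 and 7.03 against 5.05 and 3.05, a log2 fold change of -1.18 (adjusted p = 0.181). miR-4482-3p gave 5.46 and 3.71 against 2.21 and 2.21, with -1.03 (adjusted p = 0.138), and miR-487b gave 28.8 and 30.8 against 21.4 and 18.3, with -0.59 (adjusted p = 0.138). On odd columns these 4 miRNAs had -1.59, -1.10, -0.72 and -0.51. Of the 4, miR-431-3p had 1 probe fewer in the total of co-administration replicate 2, and miR-4482-3p had 1 more in the total of luteolin replicate 1 than on the other 3 arrays. All probes summed gave -1.07 for miR-431-3p and -0.81 for miR-4482-3p (adjusted p = 0.123 and 0.0368).

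For 7 further miRNAs with lower values, the number of probes in the total differed between the groups as well. miR-30e-3p had 2 probes in the total on each luteolin array and 1 on each co-administration array, and its log2 fold change of -0.90 (adjusted p = 0.0823) was -0.36 when both probes were summed throughout. miR-194-5p and miR-7-5p had the same numbers of probes, and -0.88 and -0.93 became -0.35 and -0.40. miR-7-5p is known to target EGFR. miR-1306-3p went from -0.98 to -0.50 and miR-339-3p from -0.80 to -0.59, each with 1 probe fewer on co-administration replicate 2. miR-4710 and miR-5701 were detected on both luteolin arrays and on neither co-administration array (adjusted p = 0.181 and 0.286), and all probes summed gave -0.57 and -0.64.

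Opposite arms were set against the guide arms of their precursors, since let-7a-3p and miR-100-3p are both opposite arms, so that this set was chosen after seeing the data and its counts partly restate these 2 members. Of 27 opposite arms of listed guide arms, 1 was called lower and 0 higher (beside 0.625% and 1.25% of all miRNAs tested), and 7 lower and 0 higher had an unadjusted p under 0.05 (beside 7.08% and 8.33% of all). The co-administration lay below luteolin without overlap for 9 of 27 and above for 0, beside 17.9% and 16.2% of all. Their median log2 fold change was -0.15, beside -0.03 for the guide arms of the same 27 precursors and -0.05 for all 480 miRNAs. That median includes 6 opposite arms that were detected on none of the 4 arrays and stand at 0.00. For gefitinib alone against DMSO the same 27 opposite arms had a median of -0.71, beside -0.10 for all 480. In 13 precursors with both arms detected on all 4 arrays, the opposite arm had the lower log2 fold change in 11, with a median difference of -0.27. Without let-7a-3p and miR-100-3p, 0 of 25 opposite arms were called by limma, 5 were lower and 0 higher at an unadjusted p under 0.05, 7 lay below luteolin without overlap and 0 above, the median was -0.15, and the opposite arm was the lower in 10 of 12 precursors with a median difference of -0.23. Over the 13 precursors the medians were -0.31 for the opposite and -0.04 for the guide arms. For miR-100 the values were -1.66 for the 3p arm and -0.14 for the 5p arm, whose signal was 3120 and 4217 with luteolin and 3255 and 3317 with both drugs. miR-29b-1-5p gave 5.93 and 8.18 against 3.90 and 4.79, a log2 fold change of -0.69, while its guide miR-29b-3p had -0.07. miR-29c-5p had -0.55 and its guide miR-29c-3p -0.07. The exceptions among the 13 were miR-424-3p, at 0.08 for both arms, and miR-17-3p, at -0.01 for both.

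The opposite arms kept a median below 0 when the spots were combined differently, at -0.31 with all probes summed, -0.40 on odd columns and -0.27 with the median of spots, and 11, 13 and 11 of 27 lay below luteolin without overlap, beside 87, 92 and 84 of all 480. With the median of spots 1 opposite arm lay above luteolin without overlap. In the order all probes, odd columns and median of spots, limma called 2, 0 and 1 opposite arms, beside 13, 0 and 1 of all 480. In that order 8, 8 and 6 were lower at an unadjusted p under 0.05. In the 13 precursors, the opposite arm was the lower in 12, 10 and 12. Their direction against 0 depended on the scaling: the median was 0.00 with quantile normalization and with scaling to human small-RNA control probes, which moved the median of all 480 to 0.24. The difference between the arms was -0.15 with quantile normalization, and it cannot move with the other scalings, whose single factor per array cancels between the arms. The opposite arms were dim, and their part in the limit of detection was measured only through the sum of all probes.

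**Figure D4:**
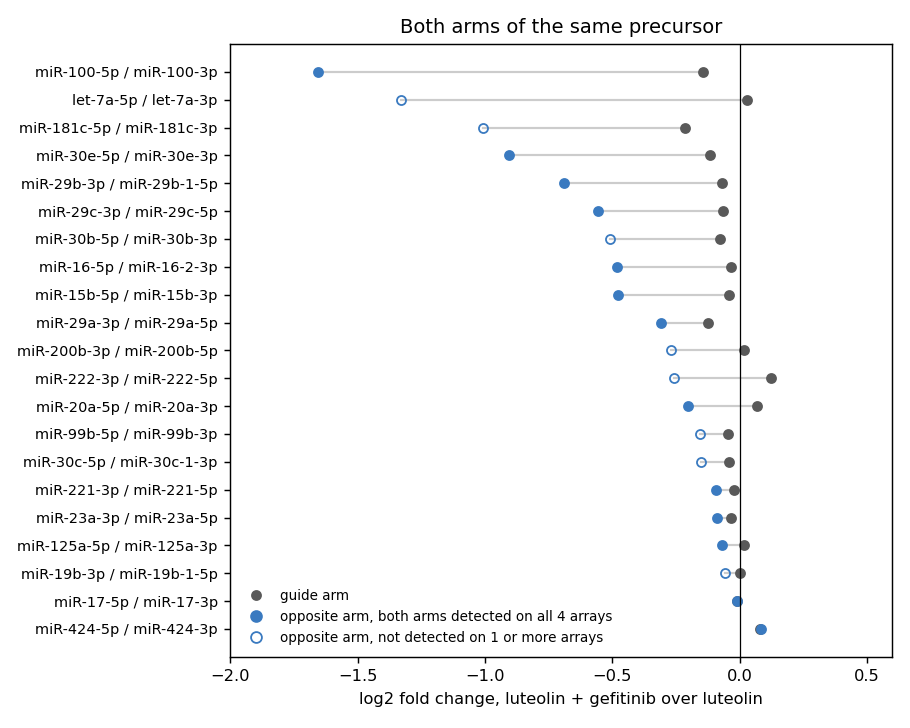
Log2 fold change of luteolin plus gefitinib over luteolin (total signal) for the guide arm (grey) and the opposite arm (blue) of 21 precursors, with open circles where the opposite arm was undetected on at least 1 of the 4 arrays. The 6 precursors whose opposite arm was detected on none of the 4 arrays are not drawn, and in most of those drawn the blue point lies to the left, as for miR-100 at -1.66 against -0.14.

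The effect of gefitinib in the presence of luteolin was compared with its effect in cells given DMSO, 2 differences that share no array. Across the 365 miRNAs detected on all 8 arrays, Pearson's r between them was 0.635 and Spearman's rho was 0.543, and 70.7% had the same sign. These are correlations across miRNAs, which are not independent replicates, and the differences share the slide and its scaling. The values were 0.628, 0.554 and 70.4% on odd columns. The SD of the log2 fold changes was 0.392 with luteolin and 0.537 without it. miR-630 had a log2 fold change of 2.26 for gefitinib alone (adjusted p = 0.0190) and 1.57 on top of luteolin, and miR-5703 had 2.11 (adjusted p = 0.0281) and 1.61. miR-4746-3p had 1.51 (adjusted p = 0.00401) and 0.90, and miR-188-5p had 1.69 (adjusted p = 0.0190) and 0.85. Among the falls, miR-100-3p had -1.44 (adjusted p = 0.0406) and -1.66, miR-4482-3p had -1.06 (adjusted p = 0.0469) and -1.03, and miR-487b had -0.65 (adjusted p = 0.0406) and -0.59.

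The difference between the 2 effects was tested directly and was called for 16 of 480 miRNAs (3.33%). Of the miRNAs named by the rule, 5 were among them. miR-3125 had -0.27 for gefitinib alone and 1.31 with luteolin, a difference of 1.59 (SE 0.20, adjusted p = 0.0167). miR-5194 had -0.22 and 1.25, a difference of 1.46 (SE 0.24, adjusted p = 0.0361). miR-5587-5p and miR-1226-5p were undetected on the DMSO and gefitinib arrays, so that their differences of 2.77 and 1.53 only repeat the values against luteolin set by the floor and are no separate evidence. miR-4451 differed by -1.10 (limma adjusted p = 0.0361). It was undetected on both co-administration arrays, so that this difference also rests on the floor there. On odd columns the differences were 0.31 for miR-3125, 0.30 for miR-5194, 0.26 for miR-5587-5p, 0.13 for miR-1226-5p and -1.48 for miR-4451, and each had an adjusted p of 0.997. With the median of spots they were 0.61, 0.89, 1.60, 0.34 and -0.25 in the same order, with adjusted p from 0.183 to 0.995. For miR-630 and miR-5703 the differences were -0.68 (SE 0.52, adjusted p = 0.919) and -0.49 (SE 0.54, adjusted p = 0.986), which leaves room for a smaller, an equal or a larger effect of gefitinib in the presence of luteolin.

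**Figure D5:**
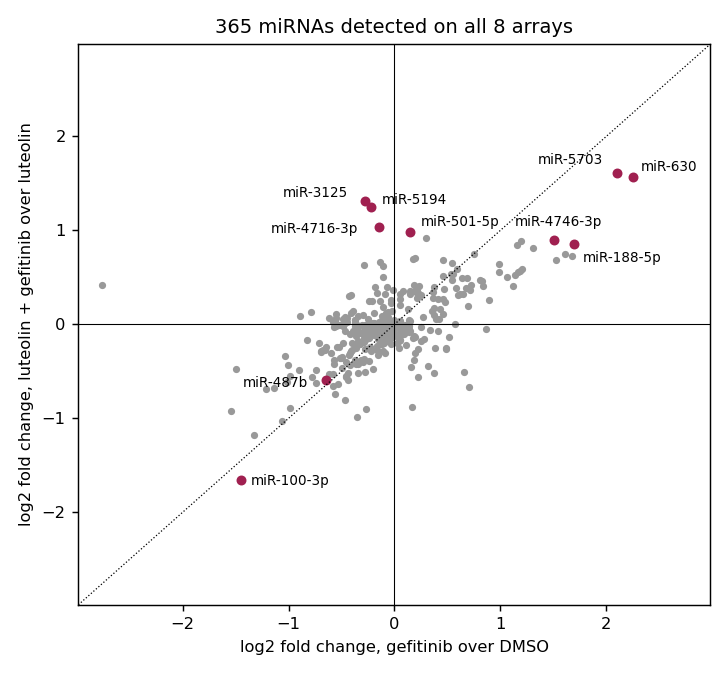
Log2 fold change of gefitinib over DMSO (x axis) and of luteolin plus gefitinib over luteolin (y axis) for the 365 miRNAs detected on all 8 arrays, with named miRNAs in red and the dotted line marking equal effects. miR-630 lies at 2.26 and 1.57 near other miRNAs that are high on both axes, and miR-3125, miR-5194, miR-4716-3p and miR-501-5p stand high on the y axis alone.

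Few of the guide arms of the main families stood apart between the groups. Of 64 listed guide arms tested, 0 were called, 0 had an unadjusted p under 0.05 in either direction, and their median log2 fold change was -0.04. The co-administration arrays lay above both luteolin arrays for 1 of them and below both for 5, beside 16.2% and 17.9% of all miRNAs. The let-7 guide arms, 9 of 9 tested, had a median of 0.00 and a range of -0.03 to 0.20. The 11 guide arms of the miR-17-92 cluster and its paralogues, which promote proliferation, had a median of 0.03 (-0.13 to 0.09), and the 7 of the miR-15/16 family, which target cell cycle genes, had 0.02 (-0.45 to 0.42). The miR-200 family, which maintains the epithelial state, had -0.03 over 3 members. The miR-29, miR-30 and miR-181 families had -0.07, -0.08 and -0.16 over 3, 5 and 4 members. miR-221 and miR-222, which target the cell cycle inhibitor p27, had -0.02 and 0.12, and the miR-23, miR-24 and miR-27 guides had a median of -0.09 over 5. miR-99/100 and miR-125 had -0.10 over 5, miR-26 had -0.15 over 2, miR-103 and miR-107 had -0.12, miR-320 had -0.10 over 5, and the guides of the miR-130 and miR-148 families had -0.15 over 8, with a lowest value of -1.21.

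miR-21-5p, widely raised in carcinomas, gave 3561 and 4731 with luteolin and 3608 and 4001 with both drugs. miR-125b-5p gave 2424 and 3239 against 2366 and 2640. Both overlapped between the groups. miR-494, from the 14q32 cluster, gave 2683 and 741 with luteolin and 1291 and 622 with both drugs, so that the replicates differed more than the groups, and its log2 fold change of -0.65 had an SE of 0.74.

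The 7 tested miRNAs known to target EGFR or its signalling gave 0 calls and a median of -0.10, from -0.93 for miR-7-5p to 0.12. With all probes summed miR-7-5p had -0.40. The 4 p53-linked miRNAs had a median of -0.46 and a range of -1.30 to 0.06, with 0 calls. Of these, miR-34a-5p had -0.03 (10.9 and 18.4 against 12.2 and 15.8). miR-194-5p had -0.88, and -0.35 with all probes summed, so that the median leans on the number of probes in its total. The CLCN5 cluster had 11 tested members and a median of -0.02, of which miR-501-5p was called higher (beside 1.25% of all) and 0 lower, with its odd-column value of 0.25 given above. Without adjustment 3 of the 11 were higher (beside 8.33% of all) and 0 lower, and without overlap 3 lay above and 2 below (beside 16.2% and 17.9%). The cluster of miR-424 and miR-503 had 0.05 over 6, the miR-183 cluster -0.25 over 5, and the 14q32 cluster, with 9 of 73 members tested, 0.00, each with 0 calls. The pair miR-630 and miR-5703 had 0 calls, 2 of 2 higher at an unadjusted p under 0.05 (beside 8.33% of all) and a median of 1.59, and the study chose this pair on these arrays. Except for the 14q32 cluster, at 0.00 under each scaling, these medians shift with the scaling. With control-probe scaling every family named above except the p53-linked miRNAs had a median of 0.00 or higher, beside 0.24 for all miRNAs.

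Members that share a seed were set side by side in 12 groups of 3 or more. The 8 miRNAs with the seed GAGGUAG (let-7 and miR-98) ranged from -0.03 to 0.20, the 5 with AAAGUGC (miR-17 and its relatives) from -0.10 to 0.07, and the 3 with AGCACCA (miR-29) from -0.12 to -0.07. The widest groups were the 6 with AGCAGCA (miR-15 and miR-16), from -0.45 to 0.08, and the 3 with UCAAGUA (miR-26 and miR-4465), from -0.25 to 0.41. In 8 of the 12 groups every member overlapped between co-administration and luteolin, where 34.2% of all miRNAs did not overlap. The other 4 were ACAUUCA (miR-181) with 2 members below, AGCAGCA and GUAAACA (miR-30) with 1 below each, and UCAAGUA with 1 above and 1 below.

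The base content of the mature sequence went with the direction. A sequence was found by name among the RefSeq entries used for 395 of the 480 miRNAs tested. Over the 305 of these that were detected on all 4 arrays, Spearman's rho between the log2 fold change and the percentage of G, a measure chosen after seeing the data, was 0.385, and it was 0.202 for the percentage of G and C. When the 305 were ordered by their percentage of G and divided into equal parts, the median log2 fold change was -0.10 in the lowest 102, -0.03 in the middle 102 and 0.17 in the highest 101. In the lowest part 2 had the co-administration above luteolin and 28 below, and in the highest part 34 above and 9 below. On odd columns the rho over the same 305 was 0.258. The probes of one array share labelling and hybridization, and their part in this relation was not tested. miRNAs with name numbers of 4000 and above, of which 130 were tested, had 35 above without overlap and 15 below, whereas those with numbers under 1000, of which 260 were tested, had 18 above and 51 below, beside 78 above and 86 below of all 480.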

How the data were processed

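PC-3 cell miRNAs were profiled on 8 one-colour Agilent human miRNA arrays. The authors labelled total RNA with Cy3 and read each array separately with Agilent Feature Extraction 10.7.3. The deposited totals are a linear intensity after background subtraction, not normalized across arrays, and a total of 0.1 marks an undetected miRNA. The deposited series table holds the intensity of each spot, within 0.5% of the processed signal of the scanner files for 100% of spots.

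Total signals were scaled to the 75th percentile of each array over 365 miRNAs detected on all 8 arrays, raised to a floor of 0.609 and put on the log2 scale. Tests covered the 480 miRNAs that both arrays of any group detected, with limma 3.58.1 in R 4.3.3 (lmFit and eBayes, two-sided) in 1 fit of 4 groups, with 4 residual and 1.66 prior degrees of freedom. All 4 groups share 1 estimate of the spread. No exact permutation test was run, since 0.333 is its smallest two-sided p for 2 arrays against 2. The fit was tested on simulated data. Tables were built with Python 3.11.15, pandas 2.3.3 and matplotlib 3.10.9.

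The miRNAs named were all those called, up to 8 per direction that were detected on all 4 arrays and did not overlap but were not called, up to 3 per direction detected in 1 group only, miR-630 and miR-5703, and the 2 brightest tested members of each list. The lists hold families, clusters, and miRNAs linked to EGFR or p53. The comparison, lists and rule were chosen with earlier results of these data known. The alternatives changed the scaling, the summary of spots, the background correction, the filter, the floor, the test, the replicate block and the arrays included. The median of spots, the odd columns and the sum of all probes were added after seeing the data.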

Additional observations from a re-analysis of the deposited data

Results flagged for a closer look

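The effect of gefitinib with luteolin differed from its effect without luteolin by the limma test of the difference for 5 of the named miRNAs. The log2 differences were 2.77 for miR-5587-5p, 1.59 for miR-3125, 1.53 for miR-1226-5p, 1.46 for miR-5194 and -1.10 for miR-4451. Of these, miR-3125 and miR-5194 were detected on all 8 arrays. miR-5587-5p and miR-1226-5p were at the floor on the other 6 arrays and entered the test only through the co-administration arrays, so that their differences are no separate evidence. The first 4 held 5, 7, 2 and 8 spots that were bright on both co-administration arrays, and the difference was 0.26, 0.31, 0.13 and 0.30 on odd columns, in the same order. miR-4451 held 0 such spots and had a difference of -1.48 on odd columns (limma adjusted p = 0.997) and of -0.25 with the median of spots (adjusted p = 0.995). Its co-administration arrays were at the floor with the total signal, so that the difference of -1.10 rests on that floor. With the median of spots the first 4 were 1.60, 0.61, 0.34 and 0.89, and none passed the threshold (adjusted p from 0.183 to 0.995).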

How the results depend on the processing

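The 9 calls against luteolin became 2 with no scaling, 3 with spike-in probes, 19 (16 higher) with quantile normalization, 28 (26 higher) with human small-RNA control probes, 28 (22 higher) on the series table and 33 (29 higher) with normexp and an offset of 50, beside 6 of 9 higher. The median log2 fold change of all miRNAs moved from -0.05 to -0.17 with no scaling and to 0.24 with control probes. The count was 4 among miRNAs detected on all 8 or on all 4 arrays, 3 with no filter, 0 with only the 4 arrays compared (44 under 0.05 unadjusted), 1 (miR-5701) with the methods' t-test after adjustment, 12 with that test at its unadjusted threshold and over 2-fold, 1 with the median of spots and 0 on odd columns. It ran from 3 to 18 when 1 array was left out. With the replicate block it was 5. The replicate numbers of the labels coincided with the slide row, and the labels do not say whether same-numbered arrays were prepared together. The deviations of same-numbered luteolin and co-administration arrays correlated at 0.461 across miRNAs, with only 2 pairs. The 16 calls of the difference between both gefitinib effects became 5 with no scaling, 7 with quantile normalization, 3 with spike-in probes, 4 on mean processed signals, 2 on the series table, 9 with normexp, 2 among miRNAs detected on all 8 or all 4 arrays, 9 with a floor of 1, 3 with log2 of the signal plus 16, 1 with the median of spots, 1 on odd columns and 2 with all probes summed, and ran from 3 (without gefitinib replicate 2 or without co-administration replicate 2) to 24 (without luteolin replicate 2) when 1 array was left out. It was 12 with the replicate block. The cause was not tested beyond the spots and probes described above. The 9 called miRNAs kept their direction under each alternative that gave a value, 121 times within the threshold and 112 times not. Scaling to the 75th percentile over all miRNAs was not run, since that percentile is the undetected value on several arrays.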
